A study of Mus musculus with 6 samples.

Results

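The genes described here are 35 genes of sterol and fatty acid synthesis, their control and transport, and the uptake of lipoproteins. They were listed by name: 18 enzymes of cholesterol synthesis in pathway order, 5 genes of sterol-sensing control, 2 lipoprotein receptors, 4 genes of sterol and phospholipid transport and 6 genes of fatty acid synthesis. All 35 were found among the 53801 gene entries of the read count table, and all 35 passed the filter on low counts. Transcripts had been counted in fetal liver cells (E12.5-13.5) of a B6J-based mouse strain that carries Cas9 and EGFP, driven by the CAG promoter, at its ROSA26 locus. All 6 libraries came from cells that carried the guide sgGata1, the microRNA miR-125b from a lentivirus, and a doxycycline-inducible construct, and all were given doxycycline at 1 μg/mL for 48 h. That construct encoded FLAG-tagged Arid3a, which binds AT-rich DNA, in 3 libraries and an insert named LUC in the other 3. The cells are called Gata1s cells, after the shortened GATA1 protein (GATA1 is a transcription factor of blood cells), and the comparison asked what induced Arid3a changes in them. Both groups thus share the Gata1 guide and miR-125b, and no library here comes from cells without them. The labels do not say whether replicates came from separate animals or cultures. The p-values therefore measure only how these samples spread, and that spread may be technical.

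Cholesterol is built from acetyl-CoA. The first enzymes make mevalonate and isoprenoid units, which are joined into squalene, and the later enzymes close the rings of squalene and trim lanosterol to cholesterol. When sterols run low in the endoplasmic reticulum, the escort protein SCAP carries the SREBP factors to the Golgi, where they are cut and released to the nucleus to switch on these enzymes. INSIG proteins hold SCAP back when sterols are plentiful. SREBP-1 is best known for fatty acid synthesis and SREBP-2 for sterol synthesis, while LXR receptors respond to oxysterols and raise the exporters ABCA1 and ABCG1. Megakaryocytes, the platelet-forming cells named in the series title, build an extensive internal membrane system before they release platelets.

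Total counts ran from 15730908 to 18249053 per library, and levels are given as CPM with library sizes scaled by TMM. The Arid3a construct had 2758 to 3348 counts in the Arid3a-FLAG libraries and 0 in each LUC library, which allows up to 3 counts in each (counting error only). In a principal component analysis the first component (45.3% of the variance) separated the groups, and LUC library 2 stood apart on the second (24%). The choice of these 35 genes already named this library as one that shifted them, and results are given with and without it. Summed levels of 10 megakaryocyte markers were 6153 to 7664 CPM with LUC and 6641 to 7103 CPM with Arid3a-FLAG, and 4 of the 10 rose with Arid3a-FLAG (3.43% of all tested genes were called higher and 3.87% lower). Pf4 made up much of these sums, at 3288 to 4984 CPM with LUC and 2971 to 3282 CPM with Arid3a-FLAG. In 8 of the 10 every Arid3a-FLAG library was above every LUC library, and in 1, Pf4, every one was below. Over all tested genes these shares were 16.6% and 16.5%. The 10 mast cell and basophil markers summed to 2350.4 to 2809 CPM with LUC and 1079 to 1894 CPM with Arid3a-FLAG, and 4 of 8 tested fell. The 10 erythroid markers summed to 287 to 321 CPM and 374 to 467 CPM. The 12 monocyte and macrophage markers summed to 16.6 to 20.6 CPM with LUC and 25.6 to 32.8 CPM with Arid3a-FLAG, with Marco and Ly86 at 0 in every library. Hepatocyte markers were nearly absent for cells named after the liver: 6 of 12, among them Ttr, Hnf4a and Apob, were at 0 in all 6 libraries, 10 of 12 stayed under 1 CPM in each, and the sums were 20.3 to 27.3 CPM and 16.3 to 20.4 CPM, mostly Afp. Of 10 endothelial and stromal markers, 4 (Cdh5, Col3a1, Pdgfra and Dcn) were at 0 in every library, and the sums were 114 to 141 CPM and 89.0 to 117 CPM. Pecam1 made up most of these sums, at 102 to 129 CPM with LUC and 83.5 to 110 CPM with Arid3a-FLAG. Of the 4 tested in this list, 1 rose and 1 fell. The part of these cell types in the results below was not tested, and in bulk RNA fewer cells of a type and less RNA per cell cannot be told apart.

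Promoter sequence is shown for members that passed the test and have an entry in the RefSeq promoter table (assembly GRCm38.p6), and for Hmgcs1, the one member whose promoter held the sterol regulatory element searched for. Each line gives the bases before the start site, 5′ to 3′ on the gene's strand, ending at the more upstream of the RefSeq and GENCODE starts. Capitals mark matches on either strand to TCACNCCAC (sterol regulatory element), CCAAT (bound by NF-Y), GGGCGG (Sp1), CACGTG (E-box), the LXR direct repeat (AGGTCA, 4 bases, AGGTCA) and ATTAAA (core of the Arid3a motif), and a match on the other strand shows as its reverse complement.
Hmgcs1 promoter, chr13:119690101-119690350, plus strand: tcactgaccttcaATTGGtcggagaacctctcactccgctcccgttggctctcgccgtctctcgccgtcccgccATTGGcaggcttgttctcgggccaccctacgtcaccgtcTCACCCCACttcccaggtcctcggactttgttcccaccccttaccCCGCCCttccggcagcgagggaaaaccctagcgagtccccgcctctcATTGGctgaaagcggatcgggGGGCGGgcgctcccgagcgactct
Hsd17b7 promoter, chr1:169969242-169969455, minus strand: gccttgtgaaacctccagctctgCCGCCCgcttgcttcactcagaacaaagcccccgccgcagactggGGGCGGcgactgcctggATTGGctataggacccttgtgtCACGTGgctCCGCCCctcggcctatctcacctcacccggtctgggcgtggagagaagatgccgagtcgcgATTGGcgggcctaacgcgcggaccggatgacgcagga
Vldlr promoter, chr19:27216234-27216483, plus strand: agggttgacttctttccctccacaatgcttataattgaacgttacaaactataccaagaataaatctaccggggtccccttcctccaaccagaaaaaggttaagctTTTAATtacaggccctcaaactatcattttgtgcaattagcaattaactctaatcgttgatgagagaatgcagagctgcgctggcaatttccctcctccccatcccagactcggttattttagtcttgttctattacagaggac
Pltp promoter, chr2:164857712-164857958, minus strand: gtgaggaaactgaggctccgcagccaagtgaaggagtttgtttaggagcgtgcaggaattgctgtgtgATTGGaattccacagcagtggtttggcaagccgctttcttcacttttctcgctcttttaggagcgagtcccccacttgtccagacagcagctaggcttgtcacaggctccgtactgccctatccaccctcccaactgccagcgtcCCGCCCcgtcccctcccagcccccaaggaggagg
Fasn promoter, chr11:120824548-120824797, minus strand: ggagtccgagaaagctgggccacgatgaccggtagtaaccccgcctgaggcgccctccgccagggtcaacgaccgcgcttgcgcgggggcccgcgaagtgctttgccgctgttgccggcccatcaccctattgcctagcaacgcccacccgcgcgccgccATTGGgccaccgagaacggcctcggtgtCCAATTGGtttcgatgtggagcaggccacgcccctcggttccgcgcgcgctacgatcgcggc
Elovl6 promoter, chr3:129532136-129532354, plus strand: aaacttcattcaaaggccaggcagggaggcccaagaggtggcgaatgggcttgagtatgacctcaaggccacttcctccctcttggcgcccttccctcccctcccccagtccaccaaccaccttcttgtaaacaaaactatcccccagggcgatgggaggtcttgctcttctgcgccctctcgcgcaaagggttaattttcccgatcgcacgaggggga
Hmgcs1 held TCACCCCAC, 137 bases before its RefSeq start, between CCAAT and GGGCGG matches. In Fasn the run CCAATTGG is a pair of overlapping CCAAT matches on opposite strands. The stretch of Elovl6 held none of the motifs, and that of Vldlr held only ATTAAA. Vldlr has a second window in the table, not shown, whose start at 27217020 has a CCAAT match 78 bases and a GGGCGG match 42 bases before it. Counted over windows of 250 bases before to 50 bases after a start, 28 of the 35 members had 39 windows, some of them overlapping windows of 1 gene. The sterol regulatory element was in 1 of the 39, against 1.24% of all 32851 windows in the table. CCAAT was in 23 of 39 (58.97%, against 37.41% of all), GGGCGG in 27 (69.23%, against 35.66%), CACGTG in 7 (17.95%, against 7.15%) and ATTAAA in 7 (17.95%, against 13.91%). The LXR repeat was in none of the 39, against 0.02% of all windows. These are matches of letters in short windows and show no binding.

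With Arid3a-FLAG, 5 of the 35 genes rose, 1 fell and 29 did not pass, by edgeR's quasi-likelihood test with p-values adjusted over all 13631 tested genes (threshold 0.05). Over all tested genes 7.29% were called, 3.43% higher and 3.87% lower. The genes that rose were the lipoprotein receptor Vldlr, the sterol enzyme Hsd17b7 and the fatty acid genes Fasn, Scd1 and Elovl6, by 1.33-fold to 1.62-fold. The gene that fell was the phospholipid transfer protein Pltp, by 3.12-fold. Across the 35 the median log2 fold change was 0.16, against -0.03 over all tested genes. Of the 35, 28 lay above 0, where 6177 of the 13631 tested genes did. In 12 genes every Arid3a-FLAG library was above every LUC library and in 1 every one was below; over all tested genes the groups did not overlap in 33.1%, with 16.6% higher and 16.5% lower. Without LUC library 2, 17 of the 35 were higher and 1 lower, where 16.4% of 13981 tested genes were called, 8.52% higher and 7.83% lower. All 6 genes called with every library were among these 18. LUC library 2 was known to shift the 35 genes when they were chosen. The shares over all tested genes are therefore not a like background for the fit without it. The count also moved with other libraries left out: 1 gene was higher without Arid3a-FLAG library 1 or library 2, 2 without library 3, 4 without LUC library 1 and 6 without LUC library 3. Pltp was lower in each of these 6 fits, and Vldlr was higher in each. With all libraries DESeq2 called 10 higher and 1 lower, where it called 5.6% of 13086 genes higher and 5.56% lower. Besides the 6 genes called by edgeR these were Lss, Stard4, Abcg1, Acly and Scd2. Below, a gene is said to pass or not by edgeR unless DESeq2 is named.

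**Figure D1:**
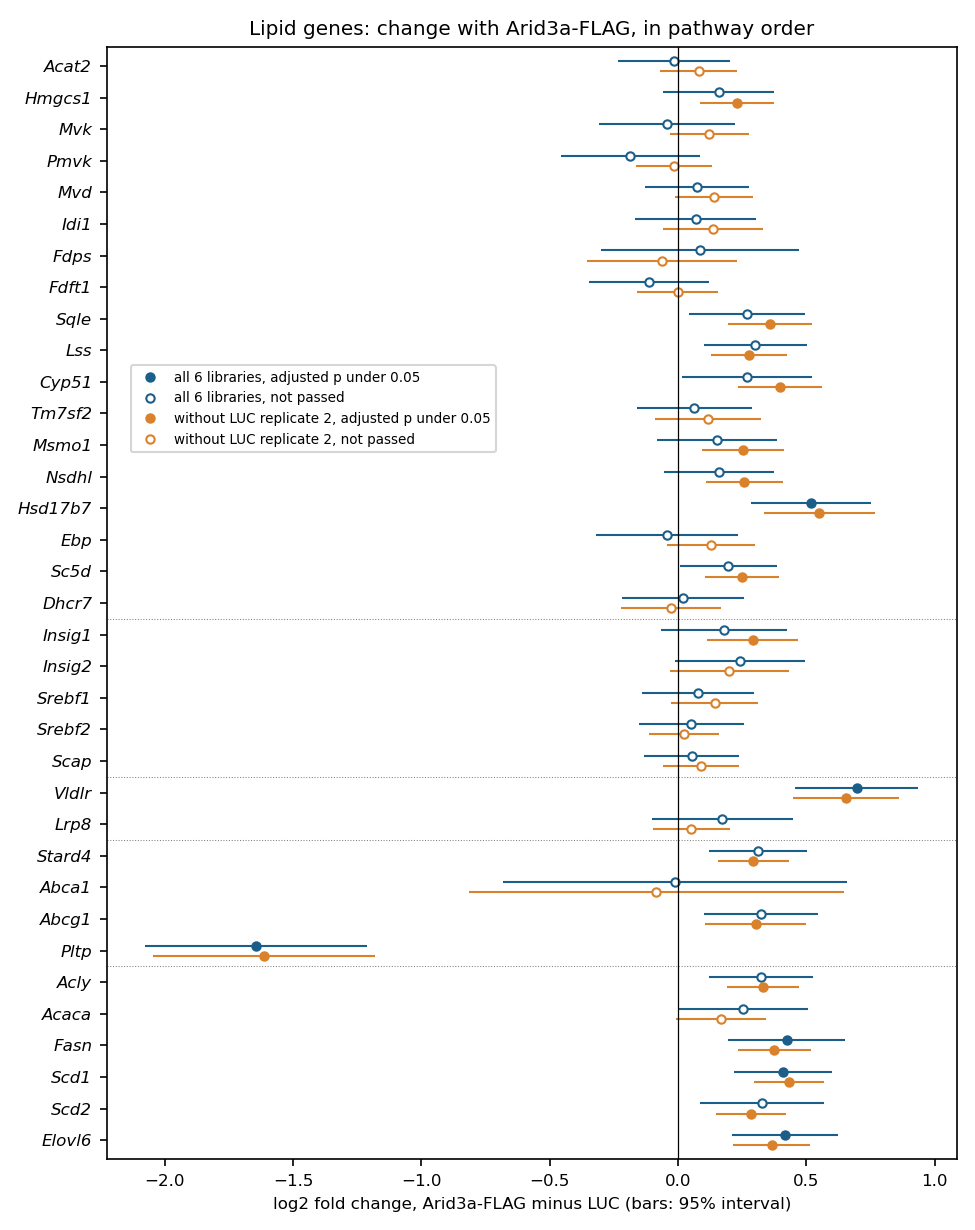
Log2 fold change of each of the 35 genes, Arid3a-FLAG minus LUC (horizontal axis), by gene in pathway order (vertical axis), with all 6 libraries (blue) and without LUC library 2 (orange); bars are 95% intervals and filled points passed at an adjusted p under 0.05. Dotted lines part the sterol enzymes, the control genes, the receptors, the transport genes and the fatty acid genes, from top to bottom. In all, 6 blue and 18 orange points are filled, and Pltp alone lies far below 0.

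The first 8 enzymes on the list, which lie between acetyl-CoA and squalene, gave no call. The list does not hold every enzyme of this stretch. Acat2, which joins acetyl-CoA units, Hmgcs1, which makes HMG-CoA, and the mevalonate kinases and decarboxylase Mvk, Pmvk and Mvd were followed by the isomerase Idi1, the farnesyl diphosphate synthase Fdps and the squalene synthase Fdft1. Their log2 fold changes ran from -0.19 (Pmvk) to 0.16 (Hmgcs1), with a median of 0.03 and adjusted p between 0.339 and 0.941. At an unadjusted p under 0.05 none of them passed in edgeR, and DESeq2 and limma-voom gave 0 adjusted calls. Hmgcs1 stood at 484, 560.2 and 515 CPM in LUC libraries 1 to 3 and at 605, 581 and 553 CPM in Arid3a-FLAG libraries 1 to 3. LUC library 2 lay above Arid3a-FLAG library 3, so the groups overlapped. Its log2 fold change was 0.16 (95% interval -0.06 to 0.37, adjusted p = 0.339), and without LUC library 2 it was 0.23 (0.08 to 0.37, adjusted p = 0.0354). That was the 1 call among the 8 without that library. Pmvk read 124, 161 and 115 CPM in the LUC libraries and 124, 111 and 117 CPM in the Arid3a-FLAG libraries, and LUC library 2 was the highest of the 6. Mvk and Fdft1 had the same highest library, at 88.6 and 225 CPM, where their other 5 libraries spanned 64.0 to 73.1 and 171 to 198 CPM. Mvk, Acat2 and the later enzyme Ebp had fold changes just below 0 with all libraries and above 0 without LUC library 2.

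Fdps needs a caution on counting. It stood at only 22.3, 13.3 and 17.2 CPM in the LUC libraries and at 18.5, 20.4 and 17.2 CPM in the Arid3a-FLAG libraries. The annotation places a second coding gene, Gm43738, over 1124 of its exon bases on the same strand, so that reads there may belong to either gene. Fdps shares 81.6% of its longest coding transcript with Gm43738, which held 0 counts over the 6 libraries. Processed pseudogenes match 74.3% to 76.8% of its longest coding transcript at 95% identity or more, and 1 of them, Gm3571, held 4209 counts over the 6 libraries against 1833 for Fdps itself. With the counts of 4 such copies added, a step chosen with the data in view, the level was 70.5, 79.1 and 61.7 CPM in the LUC libraries and 68.4, 67.2 and 66.0 CPM with Arid3a-FLAG. LUC library 2 then turned from the lowest of the 6 to the highest, and the log2 fold change went from 0.08 to -0.07 (adjusted p = 0.717). Acat2 shares 65.6% of its transcript with the paralog Acat3 (and 19.8% with its neighbour Tcp1, which was not added), Acaca 64.3% with Gm5182 and Idi1 22.6% with Gm13502. Adding those copies left all 3 without a call.

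Of the 10 later enzymes on the list, from squalene to cholesterol, Hsd17b7 rose and the other 9 did not pass in edgeR. DESeq2 also called Lss. Hsd17b7 (ENSMUSG00000026675, chromosome 1, 169949535 to 169969241, minus strand, in mm10, as for all positions given here), a 3-ketosteroid reductase that acts on the demethylated sterol ring, read 36.1, 42.7 and 45.8 CPM in LUC libraries 1 to 3 and 61.4, 59.3 and 57.9 CPM in Arid3a-FLAG libraries 1 to 3. All Arid3a-FLAG libraries lay above all LUC libraries. The means were 41.5 ± 4.96 and 59.5 ± 1.77 CPM (SD, n = 3), and the log2 fold change 0.52 ± 0.11 (SE; adjusted p = 0.0179). The adjusted p was above 0.05 in 3 of the fits that left out 1 library: 0.0532 without the first LUC library, and 0.0997 and 0.0818 without the first and the second Arid3a-FLAG library.

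Without LUC library 2, 7 of these 10 enzymes were higher, against 8.52% of all tested genes. Besides Hsd17b7 they were the squalene epoxidase Sqle, the lanosterol synthase Lss, the lanosterol demethylase Cyp51, the sterol methyl oxidase Msmo1, the sterol decarboxylating dehydrogenase Nsdhl and the sterol desaturase Sc5d. That library was already known to shift the listed genes, and it was the highest LUC library in 7 of these 10. Leaving it out thus raises most of their estimates, and the share over all tested genes is not a like background. Sqle stood at 223, 269 and 239.8 CPM in the LUC libraries and at 313, 298 and 270.3 CPM in the Arid3a-FLAG libraries, with LUC library 2 just under the lowest Arid3a-FLAG library. Its log2 fold change was 0.27 (adjusted p = 0.135) with all libraries and 0.36 (adjusted p = 0.00870) without LUC library 2. Cyp51 read 239.7, 315 and 264 CPM in the LUC libraries and 341, 341 and 305 CPM in the Arid3a-FLAG libraries. Here LUC library 2 lay above Arid3a-FLAG library 3, and the log2 fold change was 0.27 (adjusted p = 0.171) or, without that library, 0.40 (0.00514). Lss was unlike both, at 244, 221 and 236 CPM in the LUC libraries and at 303, 293 and 269 CPM in the Arid3a-FLAG libraries. LUC library 2 was the lowest of the 6 for Lss, and leaving it out brought the estimate down from 0.30 (adjusted p = 0.0710) to 0.28 (0.0188). With all libraries DESeq2 gave Lss an adjusted p of 0.0207.

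Msmo1, Nsdhl and Sc5d had smaller differences. Msmo1 went from 281 ± 29.3 to 312 ± 25.4 CPM, with log2 fold changes of 0.15 with all libraries and 0.25 without LUC library 2 (adjusted p = 0.398 and 0.0368). Nsdhl had 0.16 and 0.26 (0.331 and 0.0253), and Sc5d had 0.20 and 0.25 (0.182 and 0.0260). The 3 remaining enzymes gave no call in either fit. The sterol reductase Tm7sf2 had a log2 fold change of 0.06 (95% interval -0.16 to 0.29), the isomerase Ebp -0.04 (-0.32 to 0.23) and Dhcr7, the reductase of dehydrocholesterol, 0.02 (-0.22 to 0.26). Over the 10 later enzymes the median was 0.18, and 0.26 without LUC library 2, where the 8 earlier enzymes had 0.03 and 0.10. This split at squalene was chosen with the values known, and the difference between the arms was not tested. Cyp51 shares 166 exon bases with Akap9 and Fdft1 shares 774 with Ctsb on the opposite strand, and Tm7sf2 shares 532 with Vps51 on its own, so that reads there may belong to either gene.

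**Figure D2:**
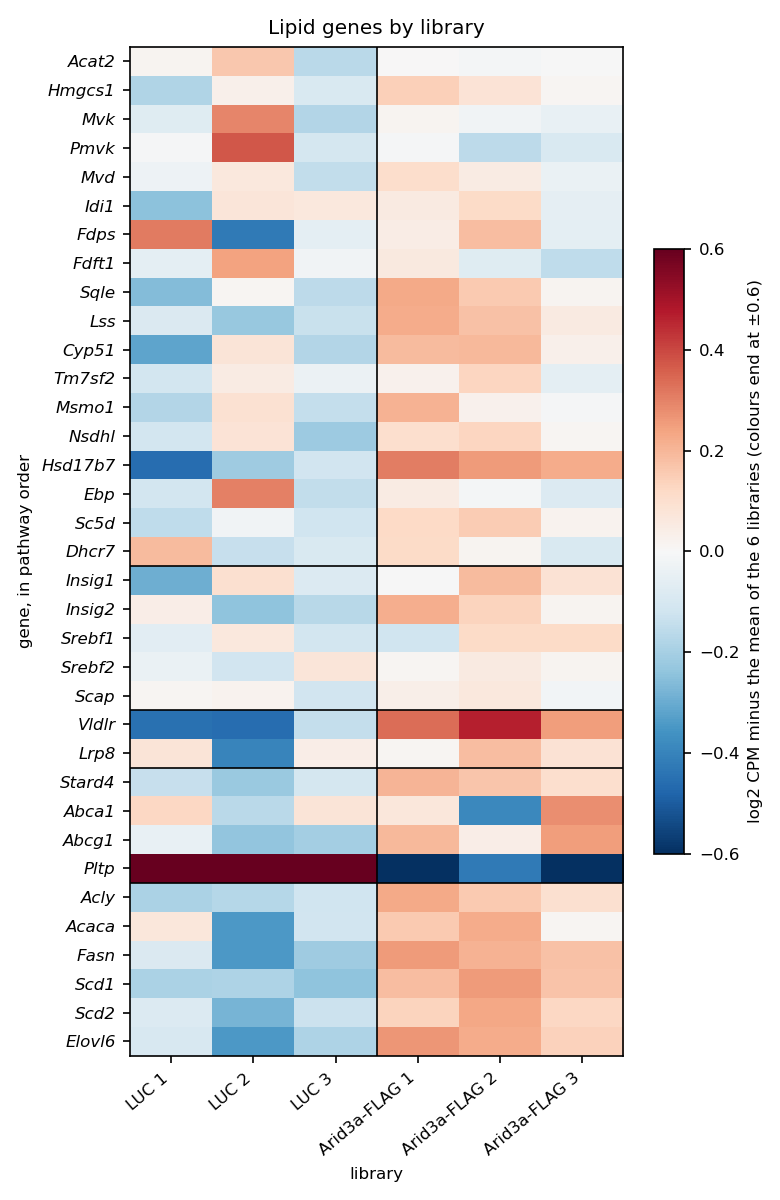
Log2 CPM of each gene in each library minus its mean over the 6 libraries, as colour (red above, blue below; colours end at 0.6 either way), with libraries across and genes down in pathway order. The fatty acid genes at the bottom are blue in all LUC libraries except Acaca in LUC library 1, while many sterol enzymes at the top are red in LUC library 2.

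None of the 5 control genes passed with all libraries, in either direction, and none reached an unadjusted p under 0.05; DESeq2 and limma-voom gave 0 calls as well. Srebf2, which encodes SREBP-2, was at 442, 421 and 479 CPM in the LUC libraries and at 458, 472 and 461 CPM in the Arid3a-FLAG libraries, so that the LUC libraries spanned the whole Arid3a-FLAG range. Its log2 fold change was 0.05 (95% interval -0.15 to 0.26). Srebf1, which encodes SREBP-1, had 0.08 (-0.14 to 0.30) and the escort protein gene Scap 0.05 (-0.13 to 0.24). Insig1, which encodes a brake on SCAP, read 154, 202 and 179 CPM in the LUC libraries and 189, 216 and 201 CPM in the Arid3a-FLAG libraries. LUC library 2 lay above 2 of the 3 Arid3a-FLAG libraries. The log2 fold change was 0.18 (adjusted p = 0.339), and 0.29 (adjusted p = 0.0308) without that library, the only call of the 5 in that fit. Insig2, its relative, had 0.24 (-0.01 to 0.50) and no call in either fit.

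The receptors differed in outcome. Vldlr (ENSMUSG00000024924, chromosome 19, 27216484 to 27254231, plus strand) encodes the very low density lipoprotein receptor, which takes up triglyceride-rich lipoproteins and binds reelin. It read 88.0, 87.5 and 109 CPM in the LUC libraries and 152, 166 and 143 CPM in the Arid3a-FLAG libraries. The lowest Arid3a-FLAG library was well above the highest LUC library. The means were 94.7 ± 12.1 and 154 ± 11.7 CPM (SD, n = 3), a 1.62-fold rise or 0.70 on the log2 scale (SE 0.11, 95% interval 0.46 to 0.94, adjusted p = 0.00509). It was higher in all 6 fits that left out 1 library, with log2 fold changes of 0.64 to 0.84 and an adjusted p of at most 0.0351. Lrp8, the apolipoprotein E receptor 2 of the same family, was at 119, 85.5 and 116 CPM in the LUC libraries and at 113, 128 and 119 CPM in the Arid3a-FLAG libraries. Only LUC library 2 was low, and the log2 fold change went from 0.17 (95% interval -0.10 to 0.45, adjusted p = 0.409) to 0.05 (-0.10 to 0.20) without it. The difference between the responses of Vldlr and Lrp8 was not tested.

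Among the transport genes Pltp fell and the other 3 did not pass in edgeR; DESeq2 called Stard4 and Abcg1 higher. Pltp (ENSMUSG00000017754, chromosome 2, 164839518 to 164857711, minus strand), which moves phospholipids between lipoproteins, read 22.0, 26.3 and 29.1 CPM in the LUC libraries and 8.01, 10.7 and 6.03 CPM in the Arid3a-FLAG libraries. Every Arid3a-FLAG library was below every LUC library. Its means of 25.8 ± 3.62 and 8.24 ± 2.34 CPM gave -1.64 ± 0.20 on the log2 scale (SE; adjusted p = 0.00103), and the value ran from -1.88 to -1.46 with 1 library left out. It overlaps Ctsa on the opposite strand over 495 exon bases, 19.3% of its exon length. Ctsa was at 97.8, 91.1 and 101.4 CPM in the LUC libraries and at 77.4, 79.1 and 78.0 CPM with Arid3a-FLAG (log2 fold change -0.31, adjusted p = 0.0521), so reads shared with Ctsa cannot be told apart in part of the Pltp count.

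Stard4, which carries cholesterol between membranes, read 242, 228 and 247 CPM in the LUC libraries and 307, 299 and 286 CPM in the Arid3a-FLAG libraries. The groups did not overlap and lay far apart for their spread, and the log2 fold change was 0.31 (SE 0.09, adjusted p = 0.0543). It lies near the threshold: 6 of 9 other settings with all libraries called it, among them DESeq2 (0.00947), and 2 of the 6 fits that left out 1 library did, with adjusted p from 0.00956 (without LUC library 2) to 0.222 (without Arid3a-FLAG library 1 or 2). Abcg1, an exporter of cholesterol to high density lipoprotein, was at 46.7, 40.9 and 41.8 CPM (LUC) and 55.2, 49.5 and 57.4 CPM (Arid3a-FLAG). It too did not overlap, with a log2 fold change of 0.33 (adjusted p = 0.0768, 0.0399 without LUC library 2 and 0.0497 with DESeq2). Abca1, the other main exporter, was barely detected, at 1.5 ± 0.166 CPM in the LUC libraries and at 1.49 ± 0.362 CPM with Arid3a-FLAG, and its interval of -0.68 to 0.66 on the log2 scale is too wide to place it.

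All 6 fatty acid genes had estimates above 0 (6177 of 13631 over all tested genes), and 3 of them rose. Each of the 6 also had an unadjusted p under 0.05 (11.7% of all tested genes had that and were higher), and 5 had every Arid3a-FLAG library above every LUC library, where 16.6% of all tested genes had that. Fasn (ENSMUSG00000025153, chromosome 11, 120805846 to 120824547, minus strand), the synthase that builds palmitate, read 673, 563 and 616 CPM in the LUC libraries and 853, 825 and 805 CPM in the Arid3a-FLAG libraries. The 2 sets of libraries were far apart, the means 617 ± 55.1 and 828 ± 23.9 CPM, and the log2 fold change 0.42 (SE 0.10, adjusted p = 0.0336). Scd1 (ENSMUSG00000037071, chromosome 19, 44394455 to 44407879, minus strand), the stearoyl-CoA desaturase, had the tightest LUC values of the 6, at 299.9, 301 and 289.7 CPM, against 389, 408 and 386 CPM in the Arid3a-FLAG libraries. Its log2 fold change was 0.41 ± 0.09 (SE; adjusted p = 0.0199). Elovl6 (ENSMUSG00000041220, chromosome 3, 129532355 to 129638495, plus strand), which lengthens palmitate to stearate, read 88.1, 74.2 and 82.9 CPM (LUC) and 113, 110.0 and 104 CPM (Arid3a-FLAG) and rose by 0.42 (SE 0.09, adjusted p = 0.0251). In each of these 3 genes the call was lost without any 1 of the Arid3a-FLAG libraries (adjusted p of 0.0610 to 0.163), while their log2 fold changes stayed between 0.37 and 0.51 in all 6 fits that left out 1 library. With the replicate number as a block, Fasn had an adjusted p of 0.0640.

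The other 3 fatty acid genes did not pass with all libraries in edgeR, while DESeq2 called Acly (adjusted p = 0.00487) and Scd2 (0.00781). Acly, which makes acetyl-CoA from citrate, was at 491, 498 and 515 CPM in the LUC libraries and at 656, 625 and 599.6 CPM in the Arid3a-FLAG libraries, with no overlap and a log2 fold change of 0.32 (adjusted p = 0.0597). Scd2, the second desaturase, was at 1796, 1565 and 1735 CPM (LUC) and 2087, 2232 and 2069 CPM (Arid3a-FLAG), also with no overlap, and had 0.33 (0.0966). Both passed without LUC library 2, at adjusted p of 0.00629 and 0.0114. Scd1 and Scd2 are neighbours on chromosome 19 and match over 11.4% of the Scd2 transcript at 95% identity or more. Acaca, the acetyl-CoA carboxylase that commits carbon to fatty acids, overlapped between groups, at 150.2, 113 and 132 CPM (LUC) and 160.0, 167 and 145 CPM (Arid3a-FLAG), and had a log2 fold change of 0.25 (95% interval 0.00 to 0.51) and no call in either fit.

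**Figure D3:**
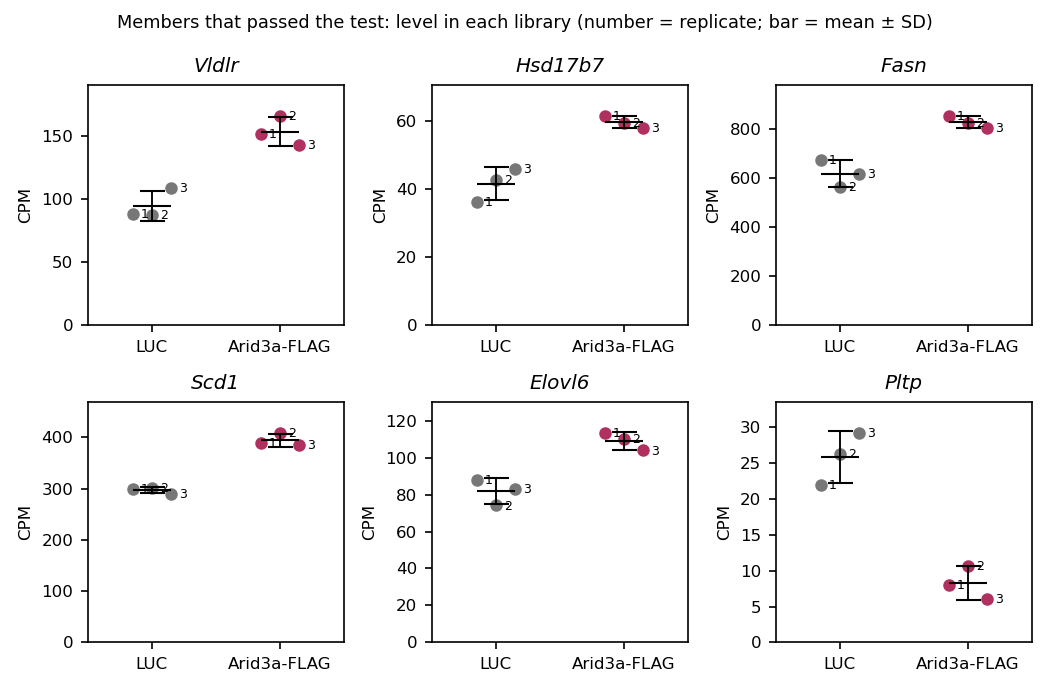
CPM (vertical axis, from 0) of the 6 genes that passed with all libraries, by group (horizontal axis); points are libraries numbered by replicate, and bars are the mean ± SD of 3 libraries. In each panel the groups do not overlap, and Pltp is the one gene with the Arid3a-FLAG libraries below.

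The position of LUC library 2 in these genes is given as a description, since its shift in them was known when they were chosen, and no difference between the gene groups was tested. Among the 18 sterol enzymes it was the highest of the 3 LUC libraries in 14 and the lowest in 3, where over all tested genes it was the highest in 41.6% and the lowest in 40.1%. The median of its log2 CPM minus the mean of the other LUC libraries was 0.19 for the sterol enzymes and 0.01 over all tested genes. For the 6 fatty acid genes it was the lowest in 4 and the highest in 1, with a median of -0.18, and for both receptors it was the lowest. In 12 of the 18 sterol enzymes (66.7%) LUC library 2 lay above the lowest Arid3a-FLAG library, near the share over all tested genes (64%), and in 5 (27.8%, against 41.1%) above all of them. In the 6 fatty acid genes it was above no Arid3a-FLAG library. Summed over the 18 enzymes the level was 2856, 3273 and 2902 CPM in LUC libraries 1 to 3 and 3442, 3321 and 3115 CPM in Arid3a-FLAG libraries 1 to 3. On this sum LUC library 2 falls among the Arid3a-FLAG libraries, and the groups overlap. The 6 fatty acid genes summed to 3498, 3114 and 3371 CPM in LUC libraries, and the Arid3a-FLAG libraries lay above all of these at 4258, 4367 and 4108 CPM. LUC library 2 also had the highest LUC sum in 5 of the 6 marker lists, with 7664 CPM for megakaryocyte, 321 CPM for erythroid, 2809 CPM for mast cell, 20.6 CPM for macrophage and 27.3 CPM for hepatocyte markers. Its share of mitochondrially encoded counts (1.95%, against 1.38% to 1.78% in the other 5 libraries) was the highest of the 6. The part of these values in its sterol enzyme levels was not tested.

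**Figure D4:**
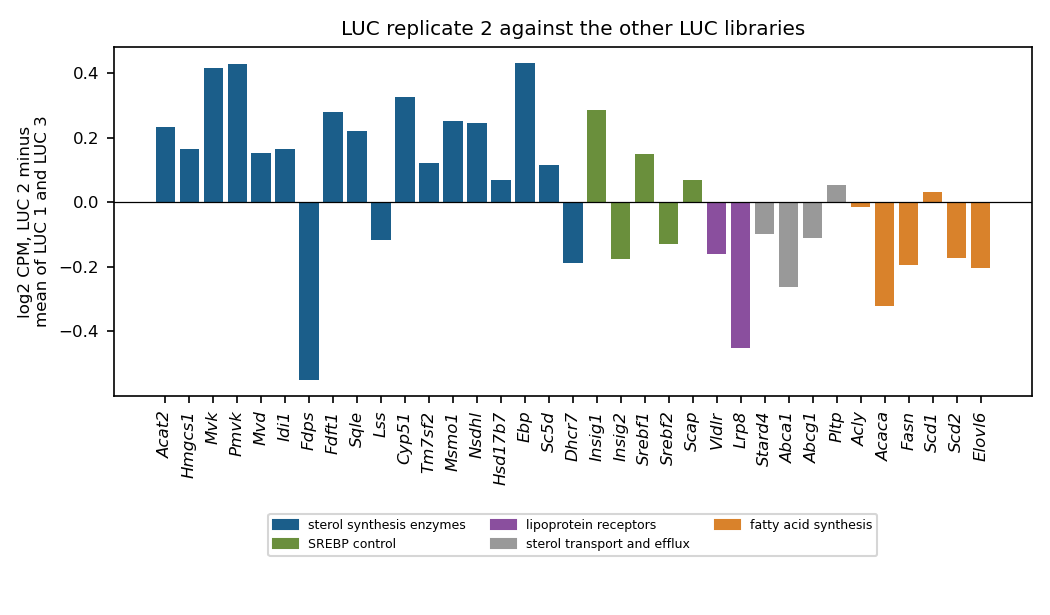
Log2 CPM of LUC library 2 minus the mean of LUC libraries 1 and 3 (vertical axis) for each gene in pathway order (horizontal axis), coloured by the list the gene belongs to. Bars of the sterol enzymes point up except for Fdps, Lss and Dhcr7, and those of the fatty acid genes point down except for Scd1.

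Per kilobase of exon, the levels of the 35 genes in LUC libraries spread widely. Scd2 was the highest, at 311 ± 21.9 CPM per kb (SD, n = 3), followed by Hmgcs1 at 113 ± 8.34 and Acly at 95 ± 2.34. Next came Mvd at 82.6 ± 6.09, Acat2 at 78.3 ± 8.74 and Pmvk at 77.8 ± 14.2, which lie within each other's spread. Scd1 stood at 60.7 ± 1.3 CPM per kb, so that Scd2 was the more abundant of the desaturases. Among control genes Srebf2 (62.2 ± 4.1 CPM per kb) was above Srebf1 (41.4 ± 2.63), and Insig1 (57.7 ± 7.78) above Insig2 (6.97 ± 0.712). The receptors Vldlr (9.41 ± 1.2 CPM per kb) and Lrp8 (10.1 ± 1.74) overlapped with LUC, while with Arid3a-FLAG Vldlr had 15.3 ± 1.16 and Lrp8 11.4 ± 0.684. Abca1 was the lowest, at 0.144 ± 0.0160 CPM per kb. Fdps (4.19 ± 1.07) is left out of this order because of its pseudogenes and its overlap with Gm43738. Exon length here is the union of all annotated exons, which understates genes with long rarely used exons.

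Further genes of these pathways were taken from 5 lists of 100 genes in all (Aacs stands on 2 of them), drawn up with earlier results of these data known. Of 88 that were tested, 5 rose and 2 fell, where 3.43% of all tested genes were called higher and 3.87% lower; 7.29% were called in all, and the share of the 88 is near that. The lists of supporting lipogenic, desaturation and elongation genes held 4 of the rises among 25 tested members (median log2 fold change 0.01). They were the glycerol-phosphate acyltransferase Gpam, from 20.7 ± 2.92 to 33.3 ± 2.92 CPM (0.69, adjusted p = 0.0121), the fatty acid desaturase Fads2, from 261 ± 5.56 to 349.8 ± 21.4 CPM (0.42, 0.0199), the malic enzyme Me1, which supplies NADPH (0.52, 0.0316), and Fads3 (0.57, 0.0362), which was named after its values were seen. Of 15 tested genes of SREBP processing and sterol-regulated degradation 1 rose, the site-2 protease Mbtps2 that releases SREBPs, from 36.1 ± 2.29 to 52.0 ± 6.0 CPM (0.53, adjusted p = 0.0192). In that list the COPII coat gene Sec23b had 0.22 (0.179). Of the 15, 14 lay above 0 (median 0.16), where 6177 of 13631 tested genes did (median -0.03).

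Of 16 tested isoprenoid and cofactor genes 1 fell, the haem-binding membrane protein Pgrmc1, from 128 ± 14.4 to 96.5 ± 5.67 CPM (-0.41, adjusted p = 0.0384). Por, the reductase that supplies electrons to Cyp51 and Sqle, had -0.35 (0.0866) and Lbr, a sterol reductase of the nuclear envelope, 0.23 (0.124). Of 21 tested genes of sterol transport, esterification and LXR response 1 fell, the oxysterol-binding protein relative Osbpl8, from 126 ± 5.92 to 97.7 ± 2.16 CPM (-0.37, adjusted p = 0.0249). Arl4c had -0.69 (0.0709) and the lysosomal cholesterol carrier Npc2 -0.29 (0.139). None of 12 tested lipoprotein receptor relatives and partners passed in edgeR (at an unadjusted p under 0.05 there was 1 in each direction, where 11.7% of all tested genes were higher and 13.9% lower, and DESeq2 and limma-voom gave 0 calls). The receptor Lrp6 had 0.31 (0.146) and Lrp10 -0.22 (0.149). Without LUC library 2 the 88 genes gave 11 rises and 3 falls, against 8.52% and 7.83% of all tested genes. With any other library left out the rises numbered 0 to 6 in edgeR, and 0 without the first LUC library or either of the first 2 Arid3a-FLAG libraries. In those fits 115 to 612 of all tested genes were called higher, against 467 with every library.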

How the data were processed

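The 6 RNA-seq libraries came as 1 table of read counts per gene deposited by the authors, with Arid3a-FLAG and LUC columns matched to samples by the labels. Reads had been processed with fastp, HISAT2 2.0.5 and featureCounts on mm10, per the submitters' processing notes. No source used here gives the settings, annotation release or strand. The construct entry was set aside; 95 gene entries (0.0107% to 0.0170% of counts) had no match in GENCODE M21, which gave symbols, positions and exon lengths.

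Counts were tested with edgeR 4.0.16 (R 4.3.3; limma 3.58.1): filterByExpr, TMM factors, the quasi-likelihood F test on group alone, two-sided, and Benjamini-Hochberg adjustment over 13631 genes at 0.05. CPM used TMM-scaled library sizes, and log2 CPM a prior count of 2. SE is the fold change divided by the root of F. The steps were tested on simulated data. Near-identical copies were sought with blastn 2.17.0 at 95% identity over at least 100 bases. Promoters came from RefSeq (GRCm38.p6).

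The alternatives were RLE and upper quartile factors, the 20 most abundant genes left out, no filter, DESeq2 1.42.0, a replicate block, limma-voom, a minimum of 5 CPM in 3 libraries, each library left out, and an adjusted p under 0.01. A fold of 1.2 (glmTreat) and added copies were chosen after seeing the data. The members and lists were chosen with earlier results of these data known. All 35 genes are reported, in full where a call was made with all libraries or without LUC library 2, as are the 3 genes with the smallest p in each further list, of which 2 are not reported here.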

Additional observations from a re-analysis of the deposited data

How the results depend on the processing

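Of the 35 genes, 5 were higher with all libraries; 9 were with no filter on low counts, 10 with DESeq2, 1 at an adjusted p under 0.01, 1 when tested against a fold of 1.2, and 1 to 17 with 1 library left out. The 1 lower gene, Pltp, was lower in every setting run. Over all tested genes 467 were higher and 527 lower; no filter gave 869 and 1076, DESeq2 733 higher, the stricter p 125 and 137, the fold of 1.2 140 and 194, and leaving out 1 library 115 to 1191 higher and 118 to 1095 lower. The further lists had 5 higher and 2 lower; the stricter p gave 0 and 0, the fold of 1.2 gave 1 and 0, no filter 4 lower, the replicate block 1 lower, and leaving out 1 library 0 to 11 higher and 0 to 3 lower. Deviations from the group means correlated at -0.10, -0.11 and 0.12 between same-numbered libraries, and at -0.18 to 0.21 between the others. With 3 libraries per group these values depend on each other, so they cannot show whether the replicate numbers mark a shared source. With the replicate block 4 of the 35 genes were higher and 1 lower. Genes near 0 changed sign on the log2 scale, none with a call in those fits. With the 20 most abundant genes left out Acat2 was at 0.00534 and Abca1 at 0.00376, with no filter 0.00474 and 0.00331, and Abca1 was at 0.00203 with DESeq2. Fdps was at -0.0684 with copies added. With 1 library left out Acat2 ran from -0.0654 to 0.0801, Mvk from -0.106 to 0.122, Idi1 from -0.00604 to 0.148, Fdps from -0.0623 to 0.310, Ebp from -0.0944 to 0.128, Dhcr7 from -0.0311 to 0.152 and Abca1 from -0.177 to 0.169. The cause of these changes was not tested. The looser motif TCANNCCAC was in 2 member windows, against 1. The low count of Abca1 limits its estimate.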
